A study of Mus musculus with 4 samples.

Results

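The genes described here are 7 regulators of pituitary cell types that do not make pro-opiomelanocortin (POMC): the transcription factors Pou1f1, Nr5a1, Foxl2 and Gata2, and the receptors Ghrhr, Gnrhr and Trhr. They were chosen by name as genes that specify or drive the other hormone lineages of the anterior lobe, and all 7 were found by gene symbol among the 24063 genes of the deposited table, with 1 RefSeq transcript each. Expression was measured by RNA-seq in mice of strain C57B6 that carry EGFP under control of Pomc. GFP-positive cells were sorted from the dissected anterior lobe (corticotropes) and intermediate lobe (melanotropes), and each cell type had 2 libraries. No treatment is given in the labels, every animal carried the reporter, and the labels give neither age nor sex. The labels do not say whether the libraries of a cell type came from separate animals or sorts, so p-values measure only the spread between these libraries, which may be technical.

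The anterior pituitary holds several hormone-producing lineages. POU1F1 (Pit-1) is the POU-homeodomain factor needed for somatotropes, lactotropes and thyrotropes, the cells that make growth hormone, prolactin and thyrotropin. NR5A1 (SF-1) and GATA2 act in gonadotropes, GATA2 also in thyrotropes, and FOXL2 is a forkhead factor of gonadotropes and thyrotropes. Each lineage answers to a releasing hormone through its own receptor: GHRHR on somatotropes, GNRHR on gonadotropes and TRHR on thyrotropes and lactotropes. Corticotropes and melanotropes instead depend on TBX19, with PAX7 marking melanotropes.

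All 7 regulators were at a lower level in melanotropes than in corticotropes. Values are given in FPKM (fragments scaled by transcript length and sequencing depth), a scale on which genes of different length can be compared, after rescaling between libraries by a trimmed mean of M values. For all 7, both melanotrope libraries lay below both corticotrope libraries, which was also so for 33.4% of the 20297 genes above 0 in a library. In corticotropes the mean levels ran in the order Pou1f1, Gnrhr, Ghrhr, Nr5a1, Gata2, Foxl2 and Trhr, from 7.79 to 0.156 FPKM, and of these neighbours Gata2 and Foxl2 alone had overlapping libraries. For comparison, the median detected gene stood at 3.823 and 3.745 FPKM in the same corticotrope libraries, and Tbx19 at 198 and 211 FPKM. Pou1f1 lay above that median in both libraries, Gnrhr near it and the other regulators below it. In melanotropes the order changed to Gata2, Foxl2, Gnrhr, Trhr, Nr5a1, Pou1f1 and Ghrhr, from 0.229 to 0.0124 FPKM. There Gata2 overlapped with Foxl2, and the run from Trhr to Ghrhr overlapped from neighbour to neighbour. In sorted bulk RNA, fewer cells that carry a transcript and less of it per cell cannot be told apart.

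**Figure D1:**
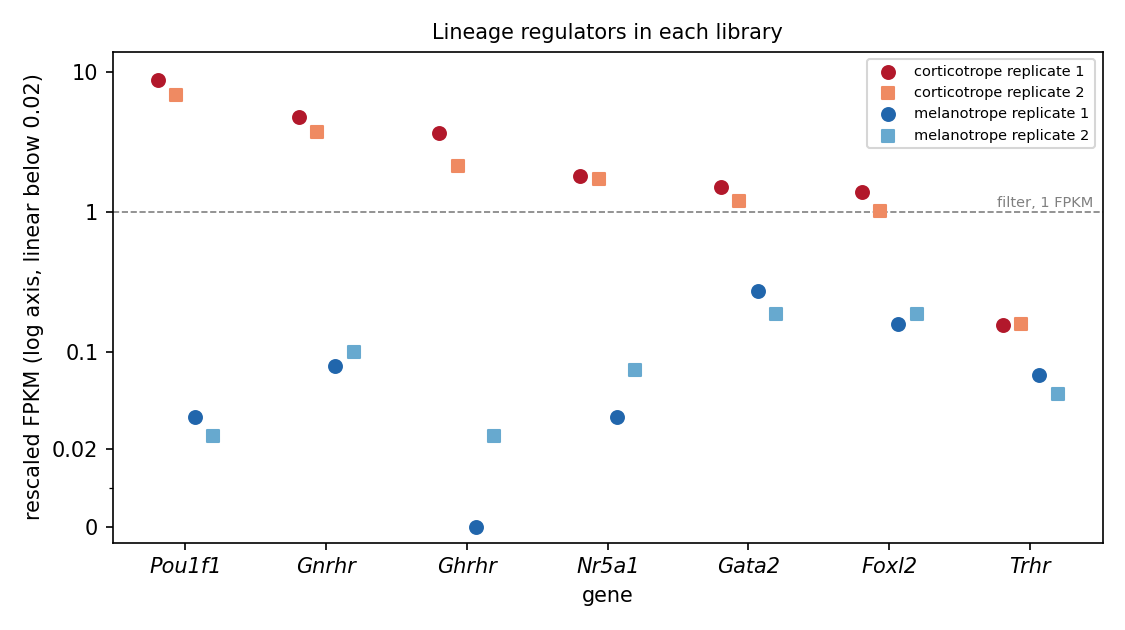
Rescaled FPKM (log axis, linear below 0.02) of the 7 regulators in the 4 libraries, 1 point per library. Every corticotrope point of a gene lies above both of its melanotrope points, and no melanotrope point reaches the 1 FPKM (dashed line) used as the filter.

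Each gene was tested in a limma fit on log2(FPKM + 1) across 13043 genes with at least 1 FPKM in at least 2 libraries. Of the 7 regulators 6 entered this fit, all of them through the corticotrope libraries alone. Genes that enter that way are low in melanotropes by selection: of 508 such genes 89.8% were called lower. All 6 were called lower in melanotropes at an adjusted p under 0.05 (Benjamini-Hochberg over all genes tested), and 0 were higher (also 0 at an unadjusted p under 0.05, limma), where 17.5% of all genes tested were called lower, 18.7% higher and 36.2% in either direction. The count of 6 is therefore a description of genes that the filter had already made one-sided. On the deposited scale, without rescaling, 66.8% of genes were called lower, 90.3% of the called genes against 48.3% after rescaling, around a median log2 fold change of -0.42, and the same 6 regulators were lower. The median gene lay at a log2 fold change of 0.01, and changes are relative to it.

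Pou1f1 (NM_008849, chromosome 16, 65520629 to 65533981 on mm10, plus strand) was the most abundant of the regulators in corticotropes. It stood at 8.78 and 6.80 FPKM in the corticotrope libraries and at 0.0340 and 0.0248 FPKM in the melanotrope libraries. The groups were far apart, at 7.79 ± 1.40 against 0.0294 ± 0.00654 FPKM (SD, n = 2 each), and the melanotrope level was 0.377% of the corticotrope level (0.282% to 0.5% over the pairs of libraries). The log2 fold change was -3.09 (SE 0.13, adjusted p = 5.23e-05, limma), and 35 of the 13043 genes had a lower one. The spacing of low FPKM values gives the number of reads behind each value, and for Pou1f1 this was 1073 and 1568 in corticotropes but 6 and 4 in melanotropes. The exact 95% Poisson intervals of those last counts, 2.2 to 13.1 and 1.1 to 10.2, cover counting error only. So the corticotrope level was measured on many reads, while the melanotrope level is known only to be close to 0. The deposited transcript has 869 exonic bases within a span of 13353, and the lincRNA Gm49631 of GENCODE M21 overlaps it on the other strand. The use of strand in counting is not stated, so reads of this pair cannot be told apart.

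Nr5a1 (NM_139051, chromosome 2, 38692660 to 38714542, minus strand), the nuclear receptor of gonadotropes, was at 1.82 and 1.73 FPKM in corticotropes and at 0.0340 and 0.0744 FPKM in melanotropes. The corticotrope libraries were nearly equal, and the melanotrope libraries differed from each other but both lay far below. The melanotrope mean was 3.06% of the corticotrope mean (1.87% to 4.30% over pairs), and its log2 fold change was -1.40 (SE 0.10, adjusted p = 0.000234, limma). It rested on 750 and 1347 reads in corticotropes and 19 and 41 in melanotropes. An antisense gene, Nr5a1os, overlaps its 5′ part in the same annotation, so here too reads of the pair cannot be told apart.

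For Foxl2 and Gata2 the melanotrope level was a larger part of the corticotrope level than for Pou1f1 and Nr5a1. Foxl2 (NM_012020, chromosome 9, 98955607 to 98958126, plus strand) was at 1.39 and 1.01 FPKM in corticotropes and 0.159 and 0.186 FPKM in melanotropes, 14.4% of the corticotrope level (11.4% to 18.4% over pairs). Gata2 (NM_008090, chromosome 6, 88198664 to 88207032, plus strand) was at 1.51 and 1.19 FPKM against 0.272 and 0.186 FPKM, or 16.9% (12.3% to 22.9%). For both genes the melanotrope values rested on 77 and 88 reads for Foxl2 and 170 and 114 for Gata2. These ranges over pairs do not overlap those of Pou1f1, Ghrhr, Gnrhr or Nr5a1, which end at 4.30%, but the difference between genes was not tested. The log2 fold change was -0.90 for Foxl2 (SE 0.12, adjusted p = 0.00243, limma). That of Gata2 was -0.93 (SE 0.11, adjusted p = 0.0018, limma). Foxl2 lay just past the filter, with 1.01 FPKM in its lower corticotrope library. Its transcript has 2517 exonic bases over a span of 2520, so it holds nearly no intron. The antisense RNA Foxl2os, which starts next to Foxl2 on the other strand and was looked at after the values were seen, had a like pattern at 2.85 and 2.29 against 0.340 and 0.347 FPKM.

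**Figure D2:**
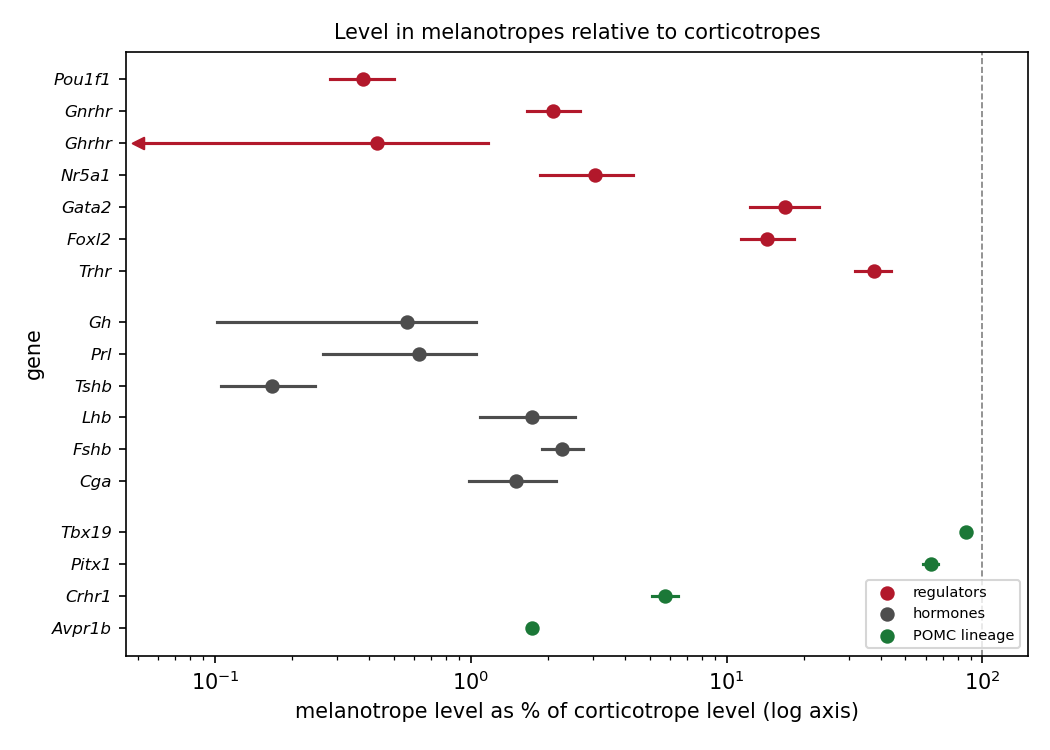
Melanotrope level as a percentage of the corticotrope level (log axis) for the 7 regulators, 6 hormone genes of other lineages and 4 genes of the POMC lineage. Points are ratios of means and lines the range over the 4 pairs of libraries (the arrow marks a range that reaches 0). Pou1f1 and Ghrhr lie below 1%, Gata2, Foxl2 and Trhr between 14.4% and 37.7%.

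Among the receptors, Ghrhr (NM_001003685, chromosome 6, 55376295 to 55388530, plus strand), the receptor through which GHRH raises cyclic AMP in somatotropes and a known target gene of POU1F1, was at 3.66 and 2.12 FPKM in corticotropes. It was listed at 0 in melanotrope replicate 1 and was at 0.0248 FPKM in replicate 2. With values deposited to 2 decimals, the 0 allows up to 1.7 reads before rounding, and the other library had 7 reads (exact 95% Poisson interval 2.8 to 14.4). The corticotrope libraries differed more for Ghrhr than for any other of the 7 genes, by 1.73 times, and its log2 fold change of -1.91 had the largest standard error (SE 0.19, adjusted p = 0.000797, limma). Without corticotrope replicate 1 it was -1.62 and without corticotrope replicate 2 it was -2.20.

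Gnrhr (NM_010323, chromosome 5, 86181998 to 86197870, minus strand), the Gq-coupled receptor for GnRH on gonadotropes, was at 4.80 and 3.70 FPKM in corticotropes and 0.0794 and 0.0992 FPKM in melanotropes. The melanotrope mean was 2.10% of the corticotrope mean, with 18 and 23 reads behind it, and the log2 fold change was -2.26 (SE 0.13, adjusted p = 0.000108, limma). It was the second most abundant regulator in corticotropes, ahead of Ghrhr in both libraries.

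Trhr (NM_013696, chromosome 15, 44196135 to 44235912, plus strand), the Gq-coupled receptor for TRH, was the exception in level. It stood at 0.156 FPKM in both corticotrope libraries (87 and 165 reads) and at 0.0681 and 0.0496 FPKM in melanotropes (52 and 37 reads), so it did not pass the filter. The melanotrope mean was 37.7% of the corticotrope mean (31.7% to 43.8% over pairs), the highest share of the 7. In a fit with no filter, where all 7 regulators were tested and called lower (12.8% of 20297 genes lower, 24.8% in either direction), the log2 fold change of Trhr was -0.13 (SE 0.02, adjusted p = 0.0175, limma). The size of that value is set by the pseudocount, which is far above the level of the gene. Its paralogue Trhr2 was listed at 0 in all 4 libraries.

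Because the regulators are low in melanotropes, the log2 fold changes depend on the pseudocount while the percentages above do not. With a pseudocount of 0.1 in place of 1 the log2 fold changes of the 6 tested genes were -5.92 for Pou1f1, -4.69 for Ghrhr, -4.51 for Gnrhr, -3.61 for Nr5a1, -2.24 for Foxl2 and -2.15 for Gata2. With one of 5 they ran from -1.34 for Pou1f1 to -0.26 for Foxl2. The call held for each gene under both.

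**Figure D3:**
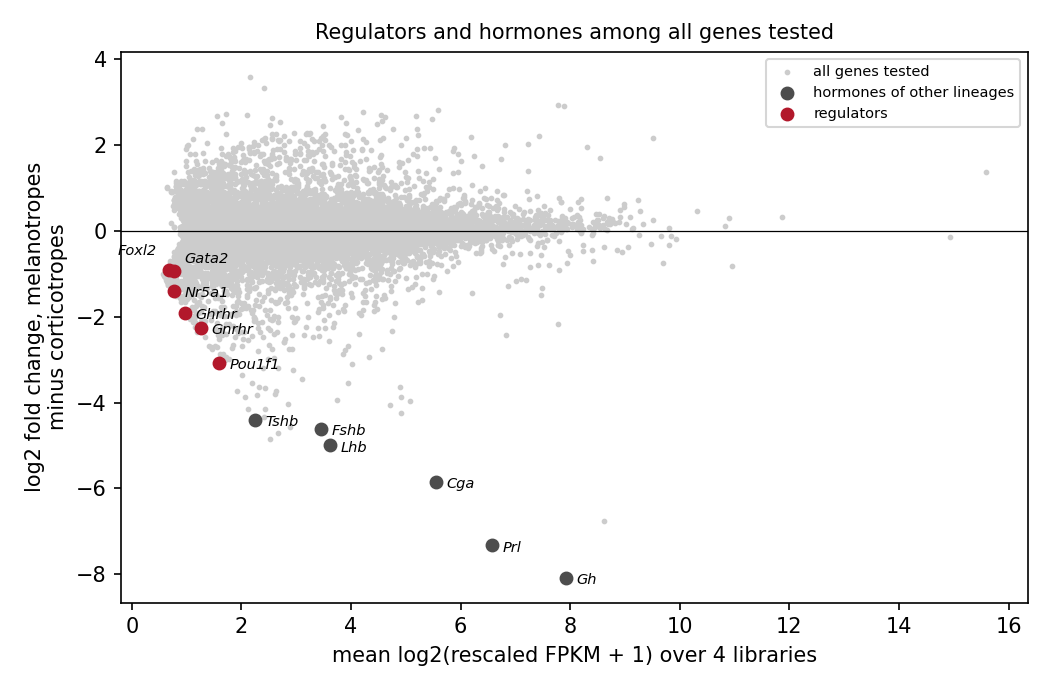
Log2 fold change (melanotropes minus corticotropes, limma on log2(FPKM + 1)) against mean log2 level for the 13043 genes tested (grey), 6 hormone genes of other lineages (dark) and the 6 regulators tested (red). The regulators lie at low mean levels and below 0, from -0.90 for Foxl2 to -3.09 for Pou1f1, and the hormones reach -8.08 for Gh.

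RefSeq promoter sequences on GRCm38.p6 (the assembly of mm10) were at hand for 4 of the 7 genes, Pou1f1, Gnrhr, Foxl2 and Gata2. The 250 bases before the start site are shown 5′ to 3′ because these genes, all lower in melanotropes, differ widely in base composition there. Capitals mark matches, on either strand, to ATGNATA (a core of POU1F1 sites), AAGGTCA (a core of NR5A1 sites), GATAAG (a core of GATA factor sites), GTAAACA (forkhead) or TATAAA (a core promoter box).
Pou1f1, chr16:65520262-65520511, plus strand: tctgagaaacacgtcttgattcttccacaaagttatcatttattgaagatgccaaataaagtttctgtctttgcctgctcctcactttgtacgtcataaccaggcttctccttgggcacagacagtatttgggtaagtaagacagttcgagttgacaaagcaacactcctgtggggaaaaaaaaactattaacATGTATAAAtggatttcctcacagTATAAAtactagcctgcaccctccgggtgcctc
Gnrhr, chr5:86197902-86198151, minus strand: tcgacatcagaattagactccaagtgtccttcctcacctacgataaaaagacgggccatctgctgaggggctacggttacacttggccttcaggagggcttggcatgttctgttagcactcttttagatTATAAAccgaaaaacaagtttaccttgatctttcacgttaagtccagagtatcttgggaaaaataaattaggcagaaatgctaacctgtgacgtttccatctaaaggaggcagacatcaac
Foxl2, chr9:98955357-98955606, plus strand: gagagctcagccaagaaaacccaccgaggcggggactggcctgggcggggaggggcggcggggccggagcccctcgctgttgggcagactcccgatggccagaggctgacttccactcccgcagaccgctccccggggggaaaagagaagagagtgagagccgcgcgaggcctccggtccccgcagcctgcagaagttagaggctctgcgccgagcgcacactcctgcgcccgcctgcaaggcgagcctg
Gata2, chr6:88198414-88198663, plus strand: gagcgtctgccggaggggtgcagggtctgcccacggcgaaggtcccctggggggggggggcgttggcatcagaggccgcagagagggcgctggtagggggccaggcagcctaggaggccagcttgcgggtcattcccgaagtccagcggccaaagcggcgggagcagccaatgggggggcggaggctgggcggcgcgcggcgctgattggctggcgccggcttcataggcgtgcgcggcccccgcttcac
The Pou1f1 stretch held 1 match to ATGNATA, 57 to 51 bases before the start site, which overlaps the first of its 2 matches to TATAAA (the other is 33 to 28 bases before it). Over 32851 promoters of the same length, 7.92% held ATGNATA and 12.4% TATAAA. The Gnrhr stretch held 1 TATAAA, 121 to 116 bases before the start site. The stretches of Foxl2 and Gata2 held 0 matches, and none of the 4 held AAGGTCA (4.08% of promoters), GATAAG (6.55%) or GTAAACA (3.17%). GC content was 41.2% for Pou1f1 and 43.2% for Gnrhr, against 70.8% for Foxl2 and 74.0% for Gata2, where the median promoter had 52.4%. CpG dinucleotides numbered 4, 7, 22 and 24 in the same order. For Pou1f1 and Gata2 the RefSeq table holds a second start site each, not shown, 2680 and 4773 bases from the start of the deposited transcript. Both of those stretches held 0 matches to the 5 motifs, with 0 and 22 CpG. The start sites shown for Foxl2 and Gata2 are those of the deposited transcripts, that of Pou1f1 lies 117 bases before the deposited transcript and that of Gnrhr 31 bases. A match or its absence in these windows says nothing about binding, which was not measured.

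The hormones of these lineages were more abundant than their regulators in the corticotrope libraries, and in melanotropes they were at 0.167% to 2.27% of the corticotrope level, where the regulators were at 0.377% to 37.7%. All 6 fell in melanotropes by limma, and their median log2 fold change was -5.42 beside 0.01 over all genes tested. Tshb, the thyrotropin subunit, was at 0.167% of its corticotrope level, Gh (growth hormone) 0.565% and Prl (prolactin) 0.626%. Cga, the shared glycoprotein hormone subunit, was at 1.5%, and the gonadotropin subunits Lhb and Fshb were at 1.74% and 2.27%, near the 2.10% of Gnrhr. Gh was at 4080 and 3875 FPKM in corticotropes and 4.16 and 40.8 FPKM in melanotropes. Melanotrope replicate 2 thus had more Gh than replicate 1, while the reads of Pou1f1 there are too few to order the libraries.

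Other genes of the POU1F1 lineages were lower in part. Of 11 listed genes 8 were tested, 4 fell and 0 rose, around a median log2 fold change of -0.52 (with no filter 7 of 11 fell, on the deposited scale 7 of 8, and with a filter on the mean 2 of 6). At an unadjusted p under 0.05, 4 were lower and 1, the neuropeptide gene Gal, was higher (limma), and 1 gene rose with the replicate number as a block, without corticotrope replicate 1 and without melanotrope replicate 2. Dlk1, a Notch-like membrane protein of somatotropes, fell from 21.4 and 22.0 to 0.544 and 0.892 FPKM (log2 fold change -3.73, adjusted p = 3.11e-05, limma). The retinoid receptor Rxrg, found in thyrotropes, fell from 1.48 and 1.23 to 0.0113 and 0.0620 FPKM, and the thyroid hormone receptor Thrb from 1.61 and 1.39 to 0.318 and 0.322 FPKM. Neurod4, a bHLH factor of somatotrope development, did not pass the filter, with 0.778 and 0.791 FPKM against 0 and 0.0248. The prolactin receptor Prlr was at 3.95 and 3.02 against 2.85 and 3.73 FPKM, with overlapping groups.

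Of 10 genes listed for the gonadotrope lineage 6 were tested, 2 fell and 2 rose (median log2 fold change -0.26). On the deposited scale 4 fell and 0 rose, with the replicate number as a block 4 fell and 2 rose, and with no filter 4 fell and 1 rose. Tgfbr3l, a membrane protein that binds inhibin B in gonadotropes, fell from 12.2 and 9.39 to 2.04 and 1.65 FPKM (log2 fold change -2.04, adjusted p = 0.000217, limma), and the inhibin subunit Inhbb from 3.08 and 4.01 to 1.15 and 1.73 FPKM. The steroid receptors Pgr (1.33 and 1.20 against 2.10 and 2.23 FPKM) and Esr1 (4.06 and 3.65 against 5.09 and 6.83 FPKM) rose. Both calls were lost on the deposited scale (adjusted p = 0.158 and 0.485, limma). Without melanotrope replicate 2 neither was called, and without corticotrope replicate 2 Esr1 was not called (adjusted p = 0.0687). Nr0b1 (DAX-1), which binds NR5A1 and represses its targets, did not pass the filter, with 0.483 and 0.469 against 0.0113 and 0.0248 FPKM.

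Proteins known to act with the 4 factors were mostly expressed in both cell types. Of 14 listed 13 were tested, 7 fell and 1 rose, around a median log2 fold change of -0.44 (12 fell and 0 rose on the deposited scale). Zfpm2 (FOG2), a cofactor of GATA proteins, fell from 4.83 and 2.63 to 0.613 and 0.372 FPKM (log2 fold change -1.63, adjusted p = 0.00282, limma). Ets1, a partner of POU1F1, fell from 5.81 and 5.61 to 1.07 and 1.16 FPKM. The LIM factor Lhx3 was called higher, at 40.4 and 42.5 against 51.0 and 50.4 FPKM, but the direction turned on the deposited scale (log2 fold change -0.19) and the call was lost without any 1 of the 4 libraries (adjusted p = 0.0959 to 0.194). Of 7 G proteins and phospholipases that couple such receptors, Gnaq alone was called lower among 6 tested (log2 fold change -0.33, adjusted p = 0.0378, limma). That call was lost without corticotrope replicate 1 or 2 or melanotrope replicate 1 (adjusted p = 0.0504 to 0.167) and with no filter (0.0612). All 6 were lower on the deposited scale, and 3 with the replicate number as a block.

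Close relatives of the regulators, 25 in the list, included 7 that were tested, of which 3 fell and 2 rose around a median log2 fold change of -0.41 (5 fell and 3 rose among 22 with no filter). The 3 that fell were the corticotrope receptors Avpr1b and Crhr1 and the PACAP receptor Adcyap1r1 (1.41 and 1.10 against 0.556 and 0.570 FPKM), whose call was lost without melanotrope replicate 1 (adjusted p = 0.0502). The receptors that rose were Glp1r, from 2.38 and 1.79 to 12.2 and 12.4 FPKM, and the oxytocin receptor Oxtr, from 0.663 and 1.13 to 2.95 and 4.29 FPKM. GLP1R, the receptor for an incretin, belongs to the secretin receptor family, as GHRHR does. Gata3, Gata4 and Gata5 were at 0.0261 FPKM or less in every library and Nr5a2 at 0.0869 or less. Gata6 (0.450 and 0.521 against 0.0227 and 0.0124 FPKM) and Gata1 (0.0409 and 0.0348 against 0.318 and 0.310 FPKM) did not pass the filter, and their differences lay in opposite directions. The releasing hormones themselves were at 0.442 FPKM or less in every library, and none of Ghrh, Gnrh1 and Trh passed the filter. With no filter Trh alone of the 3 was called lower (0.270 and 0.261 against 0.0227 and 0.0124 FPKM, adjusted p = 0.00279, limma).

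The spread between the corticotrope libraries was shared by several of these genes. Replicate 1 was above replicate 2 for 6 of the 7 regulators (45.2% of all genes tested), by 1.29 times for Pou1f1, 1.30 for Gnrhr, 1.27 for Gata2, 1.38 for Foxl2 and 1.05 for Nr5a1, and Trhr was at 0.994. The hormones Tshb, Lhb, Fshb and Cga had ratios from 1.27 to 1.29, and Gh (1.05) and Prl (0.862) did not. Over all genes tested the ratio had a median of 0.984, with a 5th percentile of 0.771 and a 95th of 1.34. Each ratio compares 1 library with 1 library.

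Genes listed as markers of cells other than the hormone lineages were mostly detected in both populations, some above every regulator (Sox2 at 12.9 to 25.8 FPKM). Whether Sox2 came from such cells or from the sorted types was not tested. Levels varied widely within the stem and folliculostellate list that holds Sox2. Aldh1a2 was at 12.3 and 16.6 FPKM in corticotropes against 1.07 and 1.49 in melanotropes. Sox9 was at 0.540 to 1.24 FPKM over the libraries, and S100b at 0.16 to 0.24 FPKM. The 9 endothelial markers, listed because endothelium also expresses Gata2, summed to 15.2 and 23.6 FPKM in corticotropes and 7.98 and 5.43 FPKM in melanotropes, with none at 0. Of 5 tested, 3 fell, Plvap, Emcn and Kdr (5 without corticotrope replicate 1, 2 without melanotrope replicate 2, and 6 of 6 on the deposited scale). All 9 were lower in corticotrope replicate 1 than in replicate 2, at 0.525 to 0.774 times, each ratio from 1 library against 1 library. Of 11 blood and immune markers 8 were tested, 4 fell (among them the globins Hba-a1, Hba-a2 and Hbb-bt) and 3 rose (Kit, Csf1r and Tyrobp), with sums of 31.4 to 38.8 against 23.0 to 24.9 FPKM and Cpa3 at 0 in every library. Posterior lobe and glial markers summed to 5.44 and 6.67 against 25.6 and 28.4 FPKM, with Rax, Slc1a3 and Col25a1 higher and none at 0. Stem and folliculostellate cell markers summed to 27.4 and 35.2 against 26.2 and 29.9 FPKM, with Aldh1a2 lower and Sox2 and Sox9 higher, and fibroblast and mural cell markers to 9.16 and 10.9 against 18.9 and 16.2 FPKM, with Rgs5 lower and Lum and Dcn higher. The part of such cells in the levels of the regulators was not tested. The part of any somatotropes, lactotropes, thyrotropes or gonadotropes among the sorted cells was not tested either. In the corticotrope libraries Gh was at 4080 and 3875 FPKM and Prl at 1126 and 1306 FPKM. Of the markers of the labelled types, all 5 melanotrope markers were called higher in melanotropes. Of 6 corticotrope and POMC lineage markers 4 were called lower. Tbx19 and Pomc were not called (adjusted p = 0.152 and 0.213, limma). Pomc was still at 30310 and 31410 FPKM in corticotropes against 74920 and 83910 FPKM in melanotropes, and the groups did not overlap. Its log2 fold change of 1.36 had a standard error of 0.756, where the median gene tested had 0.0957. The missing call for Pomc is therefore no sign of equal levels. With a single prior variance 1 gene of this list was called higher. Pax7 was at 9.45 and 7.97 FPKM in corticotropes against 57.2 and 56.0 FPKM in melanotropes, and the CRH receptor Crhr1 at 126 and 138 against 8.13 and 7.03 FPKM.

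**Figure D4:**
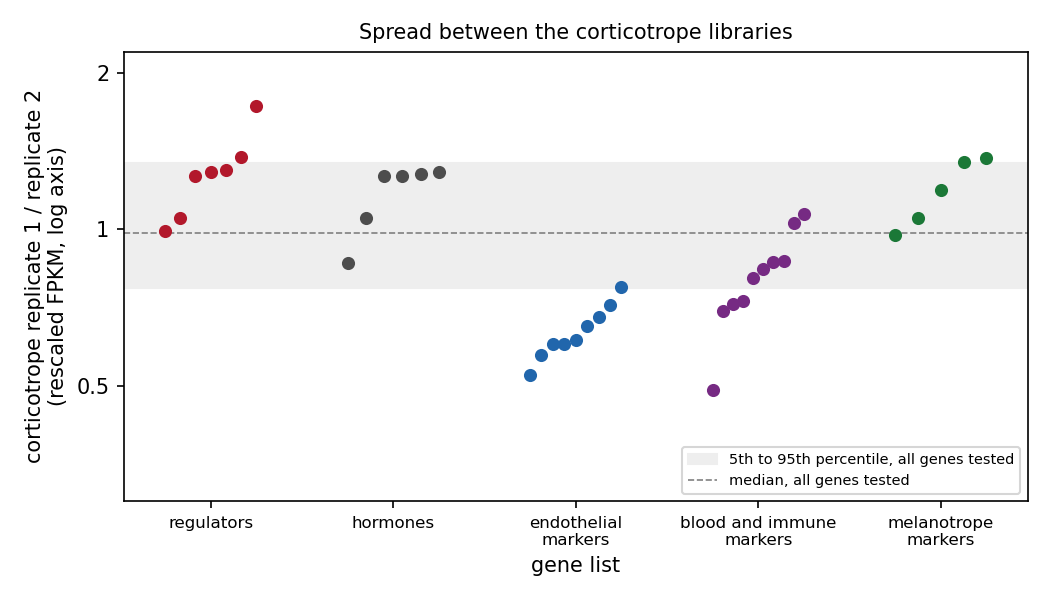
Ratio of corticotrope replicate 1 to replicate 2 (rescaled FPKM, log axis) for the regulators, the hormones of other lineages and 3 marker lists, 1 point per gene, sorted within each list. The band runs from the 5th to the 95th percentile of all genes tested. Of the 7 regulators 6 lie above 1, as do 4 of the 5 melanotrope markers, and all 9 endothelial markers lie below.

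The authors' deposited table gave a different account of the same genes. By its FDR 1 of the 7 regulators passed 0.05, Pou1f1 (authors' deposited table: log2 fold change -5.90, FDR 0.00432), where 1.10% of its 33072 transcripts were called lower and 2.28% in either direction. The authors' deposited table gave Gnrhr a p of 0.00391, Ghrhr 0.0625, Nr5a1 0.125 and Foxl2 and Gata2 0.5 each, with FDR of 0.136 to 1, and it gave Trhr a log2 fold change of 0 with a p of 1. These 7 values of p lie within 0.11% of 0.5 raised to the power 14, 8, 4, 3, 1, 1 and 0. Foxl2 and Gata2 share their deposited log2 fold change of -3.14, to all digits, with each other and with 487 transcripts in all, whose corticotrope values ran from 0.54 to 1.92 FPKM and whose melanotrope values were at most 0.46. Per the file header that test was run on the FPKM table. How FPKM entered a test made for counts is not stated, so what this p and FDR measure for such low genes is not known here. The reads behind the corticotrope values of Foxl2 numbered 492 and 673, and those behind Gata2 688 and 1021.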

How the data were processed

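The deposited RNA-seq table holds FPKM for each RefSeq transcript in each library, which HOMER's analyzeRepeats computed over exons of mm10, per the file headers. Its log2 fold change, p-value and FDR were added by the authors with getDiffExpression of HOMER, run on those FPKM, per the file headers. TopHat, HOMER and edgeR are named in the submitters' processing notes, without versions here. The deposited columns sum to 729482 to 729485 FPKM, and Pomc takes 27.2% to 27.8% of the sum in corticotropes and 49.7% to 50.9% in melanotropes.

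Columns were divided by factors of 1.22, 1.15, 0.882 and 0.807 (trimmed mean of M values, 30% of M and 5% of A trimmed, unweighted). Genes were represented by their longest transcript. Genes reaching 1 FPKM in 2 or more libraries entered limma 3.58.1 (R 4.3.3, trend, two-sided, Benjamini-Hochberg) on log2(FPKM + 1), which understates the change of low genes. Implied reads are FPKM times length over the step between low values, on which 99.7% to 100% of the short transcripts checked fell within 0.1 step. They total 97571381 to 187264892 per library over the longest transcripts. Read pairs may count as 1 or 2.

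The regulators, the gene lists and the motifs were chosen with earlier results of these data known. Named are all 7 regulators and 6 hormones, up to 3 genes per direction of each list by adjusted p, and for each tested regulator the 3 genes nearest to it. Others were chosen after their values were seen. A gene that this rule names is not reported here. A simulation of the melanotrope over corticotrope comparison covered 13043 genes. There limma called 100% of 100 genes with a simulated log2 change of 1 and 100% of 100 with one of 2. It also made 14 false calls. Recovery was not broken down by level, and the tested regulators are low, with mean log2 levels from 0.681 (Foxl2) to 1.585 (Pou1f1). Recovery at such low levels was not tested, so these rates say nothing about the regulators.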

Additional observations from a re-analysis of the deposited data

How the results depend on the processing

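All 14 alternatives left each tested regulator lower and past the threshold wherever it was tested, in 80 of 80 fits. Most of these fits kept the filter that the regulators passed through the corticotrope libraries alone. All fits drew on the same libraries, so their tally is not independent support for the calls. The count of regulators called lower was 3 with a filter on the mean, because Nr5a1, Foxl2 and Gata2 then had too low a mean to be tested, and 5 with equal sums of all transcripts but Pomc, where Foxl2 was not tested. Leaving out 1 library gave 6 in each case, with the genes tested and the scaling held fixed. Without rescaling 939 genes were called higher and 8787 lower. Without any 1 library 1673 to 2022 were called higher and 1584 to 2017 lower. With the replicate number as a block 3656 genes were higher, 3350 lower, and 6 regulators lower and 0 higher. The labels share only numbers between the cell types, and the deviations of same-numbered libraries had a correlation of 0.526 over genes, and the design does not tell whether they are pairs. With 1 library left in a cell type, it is assumed to vary like the other. Melanotrope values of Pou1f1 and Ghrhr rest on 7 reads or fewer, which sets no firm level above 0 for them.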

Other observations

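Genes whose levels over the 4 libraries lay nearest to each tested regulator were listed by Euclidean distance on log2(FPKM + 1), which ranks genes by level as well as by difference. Nearest to Pou1f1 were the channel Trpc5 (8.39 FPKM in corticotropes against 0.148 in melanotropes, distance 0.279), Neurod1 (7.88 against 0.0960) and the splicing factor Mbnl3 (7.21 against 0.126). For Gnrhr they were Epx, the potassium channel Kcnc4 and Ceacam1, and for Ghrhr Figf, Ano3 and Steap3. Nr5a1 had Itga2, Pappa2 and Clec12a, Foxl2 had Catsperg1, Kcnip4 and Plekhg4, and Gata2 had the Notch ligand Dll1, the steroid enzyme Cyp17a1 and 6720489N17Rik.

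Ratios of a hormone to its regulator within a library do not depend on the scaling, and were computed after the values were seen. Fshb over Gnrhr was 12.6 and 12.8 in the corticotrope libraries and 14.4 and 13.1 in the melanotrope libraries, where rounding of Gnrhr alone allows 13.5 to 15.5 and 12.4 to 14. Lhb over Gnrhr was 16.2 and 16.3 against 10.7 and 15.6, and Cga over Gnrhr was 83.3 and 85.1 against 49.3 and 68.8. In melanotropes these ratios over Gnrhr rest on 18 and 23 Gnrhr reads (exact 95% Poisson intervals 10.7 to 28.4 and 14.6 to 34.5). Tshb over Pou1f1 was 2.69 and 2.71 against 1.33 and 1.00, where rounding of Pou1f1 alone allows 1.14 to 1.6 and 0.8 to 1.33. Tshb over Gata2 was 15.6 and 15.5 against 0.167 and 0.133. The melanotrope values of both ratios rest on 6 and 3 Tshb reads (exact 95% Poisson intervals 2.2 to 13.1 and 0.6 to 8.8, counting error only), and those over Pou1f1 also on its 6 and 4 reads. Gh over Pou1f1 was 464 and 569 against 122 and 1650, with the same few Pou1f1 reads in melanotropes. No test was made of these ratios.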
